A study of Mus musculus with 9 samples.

Results

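A panel of 10 genes typical of marrow adipocytes, the fat-storing cells of bone marrow, was followed in mature megakaryocytes (mMKs), the platelet-forming cells, before and after ionizing radiation (IR). The genes were Adipoq, Lpl, Fabp4, Pparg, Plin1, Plin4, Cfd, Cebpa, Apoe and Cidec. They were found by name among 37316 gene names on the arrays, and all 10 were among the 29410 genes tested. Together they had 21 probes, all of which were tested.

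RNA from bone marrow mMKs of male mice was read on 9 single-colour Agilent arrays, 3 per group. The groups were controls (Ctrl), mice 1 day after 5 Gy (1 dpi) and mice 3 days after 5 Gy (3 dpi). Genotype, strain and age are not in the labels. The methods name wild-type C57BL/6 mice for control and IR comparisons, and describe selection of marrow cells first by CD41 and then by CD42d. In the paper, n stands for the mice analysed in each experiment, given as 3 for the array data.

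Marrow adipocytes arise from stromal progenitors. Pparg and Cebpa encode the transcription factors that drive this differentiation, and mature adipocytes secrete adipokines, take up fatty acids from lipoproteins and store them in droplets coated by perilipin and CIDE proteins. Several of these genes are also used outside fat: Cebpa in myeloid cells, and Apoe, Lpl, Fabp4 and Pparg in macrophages.

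Each value below is a log2 intensity minus the 75th percentile of its array. That percentile was 10.03, 10.62 and 10.66 on the Ctrl arrays, 9.33, 9.45 and 9.43 at 1 dpi, and 10.37, 10.55 and 10.53 at 3 dpi, in log2 intensity. The 1 dpi arrays were thus the dimmest before scaling. The share of spots well above background ran from 69.1% on Ctrl replicate 1 to 81.8%, and 0 spots were saturated. Ctrl replicate 1 was alone on its slide and the other 8 arrays shared the second slide, so the values within that slide are those obtained without Ctrl replicate 1. A gene was called when the limma adjusted p was under 0.05 and the change was at least 2-fold. The brightest probe stood for its gene.

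At 1 dpi, 3 of the 10 genes were called higher than in Ctrl, namely Lpl, Fabp4 and Cfd, against 12.3% of all genes tested. At 3 dpi, 7 of the 10 were called higher, namely Adipoq, Lpl, Fabp4, Pparg, Cfd, Apoe and Cidec, against 6.98% of all genes. From 1 to 3 dpi, 3 of the 10 were called higher, namely Adipoq, Fabp4 and Pparg, against 3.97% of all genes. Of the 10, 0 were called lower in each comparison, against 2.87% of all genes at 1 dpi, 1.82% at 3 dpi and 4.82% from 1 to 3 dpi. The comparisons with Ctrl share the Ctrl arrays, so they are not independent of each other. Without Ctrl replicate 1, that is within the second slide, 4, 7 and 3 of the 10 genes were called in the respective comparisons.

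The median log2 fold change of the 10 genes was 0.88 at 1 dpi, 1.72 at 3 dpi and 0.80 from 1 to 3 dpi. Over all genes tested it was 0.25, 0.11 and -0.11, a shift that depends on the scaling: with quantile normalization these medians were 0.00, 0.01 and 0.02. Of all genes called at 1 dpi, 81.1% were higher, a share that was 48.9% to 68.8% under the other scalings. At 3 dpi it was 79.4%, and 66.7% in the authors' table. From 1 to 3 dpi it was 45.2%, and 62.6% to 67.2% with quantile normalization, with array medians and in the authors' table. Relative to all genes, the median of the 10 was 0.63, 1.60 and 0.91. In bulk RNA, more cells of a type and more RNA per cell cannot be told apart, and this holds for every difference given here.

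**Figure D1:**
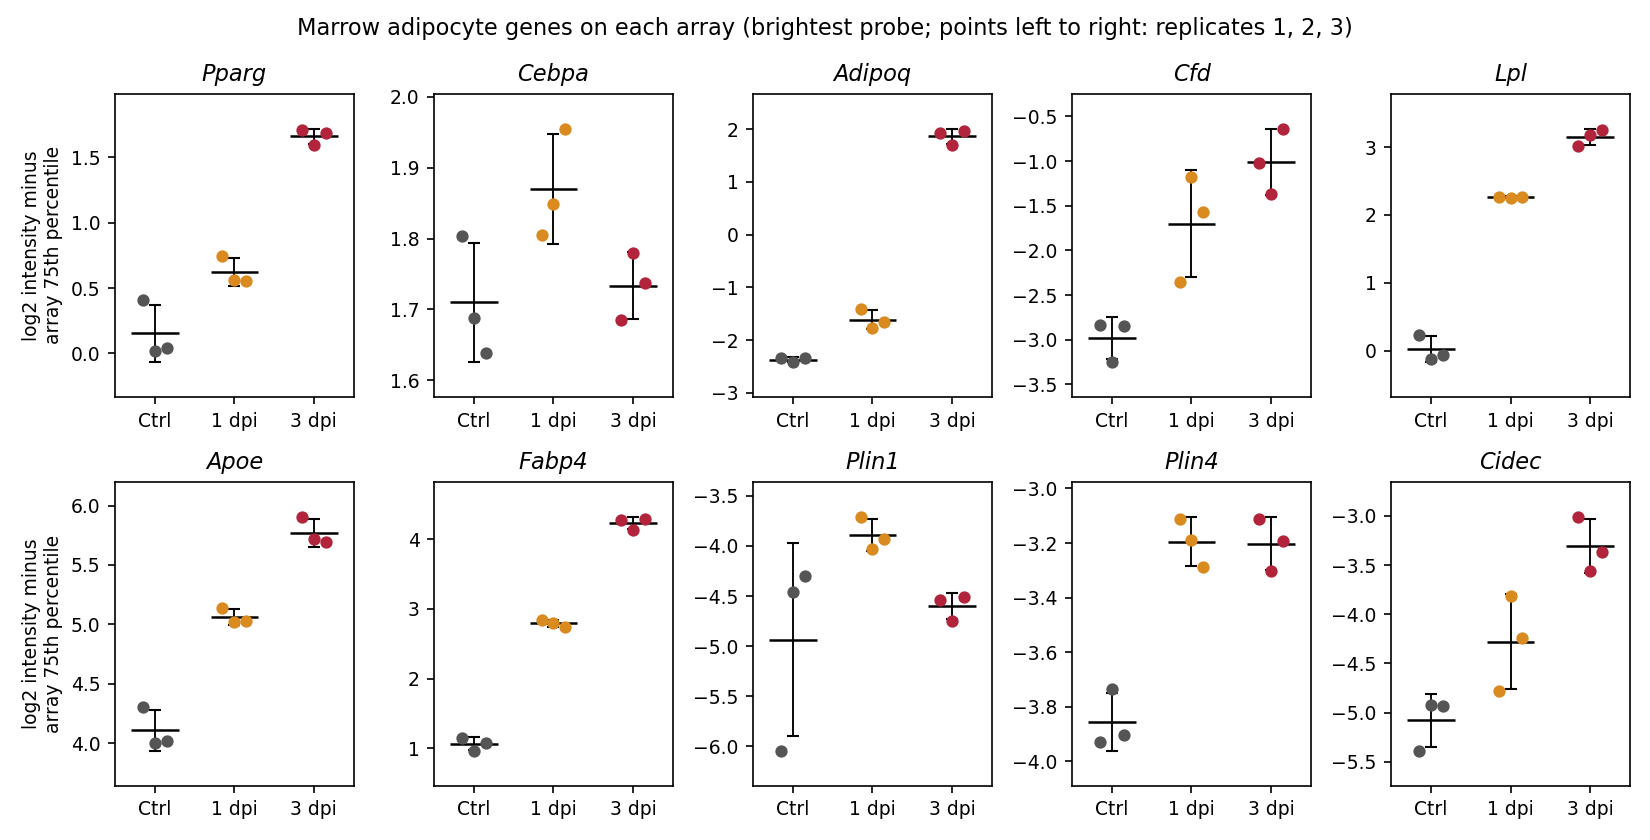
Level of each of the 10 genes on each array (y axis: log2 intensity minus the 75th percentile of the array, with a separate range per gene; x axis: group). Points are arrays, long bars are group means and error bars are SD over 3 arrays; Adipoq separates 3 dpi from the other groups, and Plin1 has 1 low Ctrl array at -6.04.

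Pparg encodes the nuclear receptor that switches on the adipocyte program. Its level was 0.41, 0.02 and 0.04 on the Ctrl arrays, 0.75, 0.56 and 0.55 at 1 dpi, and 1.71, 1.59 and 1.68 at 3 dpi. The groups did not overlap, and the 3 dpi arrays lay well above both others, while the gap between the highest Ctrl and the lowest 1 dpi array was small. The log2 fold change was 0.47 at 1 dpi (SE 0.116), which did not reach 2-fold, and 1.51 at 3 dpi, with limma adjusted p values of 0.0109 and 4.72e-05. From 1 to 3 dpi the change was 1.04, adjusted p = 0.000376, just past the 2-fold limit. With normexp background correction it was 0.97 and not called, and with the mean of both probes, which takes in the dim probe described next, it was 0.31, adjusted p = 0.0761. The 1 dpi value was 0.15 with array medians, adjusted p = 0.515, but 0.49 with quantile normalization and 0.46 with normexp correction. In unscaled intensity, Pparg read 1391, 1594 and 1660 in Ctrl and 1078, 1035 and 1010 at 1 dpi, lower at 1 dpi before scaling.

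A further probe of Pparg, at chr6:115413557-115413616 of mm9 (plus strand), was well above background on all 3 arrays at 3 dpi and on 0 arrays in the other groups. Such a group has only a bound, taken as the mean, over its arrays, of the higher of the probe's own signal and the lowest signal well above background. Against that bound the 3 dpi mean was at least 1.2-fold higher than Ctrl. The authors' table carries this dim probe for Pparg, where it read 2.71, 1.83 and 2.22 in Ctrl, 4.15, 3.70 and 3.90 at 1 dpi, and 3.49, 3.81 and 3.91 at 3 dpi in log2 units. Only the 3 dpi values of that entry were well above background, so it gives no fold change between 3 and 1 dpi.

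Cebpa encodes C/EBP alpha, which acts with Pparg in fat and also drives granulocyte differentiation. It stood at 1.8, 1.69 and 1.64 in Ctrl, at 1.8, 1.85 and 1.96 at 1 dpi, and at 1.69, 1.78 and 1.74 at 3 dpi. All 9 arrays lay within a narrow range, with the 3 dpi arrays overlapping Ctrl. The log2 fold change was 0.16 (95% interval -0.0043 to 0.32) at 1 dpi and 0.02 (-0.14 to 0.19) at 3 dpi, neither called, with adjusted p values of 0.0868 and 0.814. Its sign turned when array medians were used for scaling, to -0.16 and -0.10.

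Adipoq encodes adiponectin, a hormone secreted by adipocytes and by stromal cells committed to that lineage. Its level was -2.35, -2.42 and -2.34 in Ctrl, -1.42, -1.77 and -1.67 at 1 dpi, and 1.93, 1.70 and 1.97 at 3 dpi. The arrays formed separate groups, and each 3 dpi array exceeded each 1 dpi array by over 3 log2 units. In unscaled intensity the probe read 206, 295 and 319 in Ctrl, 241, 205 and 217 at 1 dpi, and 5019, 4865 and 5802 at 3 dpi. Before scaling, Ctrl and 1 dpi therefore overlapped while 3 dpi did not.

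At 3 dpi Adipoq was 18.8-fold above Ctrl (log2 fold change 4.23, SE 0.110, adjusted p = 3.15e-07), the largest change among the 10 genes. It was 11.2-fold above 1 dpi (log2 fold change 3.48, adjusted p = 5.37e-06). At 1 dpi its log2 fold change of 0.75 (adjusted p = 0.000937) stayed under 2-fold, and ranged from 0.44 with array medians to 0.75 across the scalings tried. Adipoq had 1 probe, at chr16:23157576-23157635 on the plus strand of mm9. The authors' table gave 7.94, 7.71 and 7.79 in Ctrl, 8.62, 8.26 and 8.38 at 1 dpi, and 11.99, 11.79 and 12.09 at 3 dpi for it, in log2 units.

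Cfd encodes adipsin, the serine protease complement factor D, secreted by adipocytes and also made by myeloid cells. It read -2.83, -3.25 and -2.85 in Ctrl, -2.35, -1.18 and -1.57 at 1 dpi, and -1.02, -1.37 and -0.64 at 3 dpi. With this scaling every irradiated array lay above every Ctrl array, but the 1 and 3 dpi arrays overlapped, and 1 dpi replicate 1 was low in its group. In unscaled intensity that array read 125.8, below the Ctrl arrays at 147.1, 165.7 and 224.2. In the authors' table, which carries the other Cfd probe, it read 6.54, between the Ctrl values of 6.19 and 6.86. The log2 fold change was 1.28 at 1 dpi, with an SE of 0.314 and an adjusted p of 0.0104. At 3 dpi it was 1.97, adjusted p = 0.00222. From 1 to 3 dpi it was 0.69, adjusted p = 0.112, with an interval of -0.04 to 1.42. The 1 dpi call was lost with array medians (0.96), with normexp correction (0.88) and in the authors' table (0.95). Its other probe gave 1.23 and 2.05 at the respective times.

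Lpl encodes lipoprotein lipase, which frees fatty acids from circulating lipoproteins. Its level was 0.24, -0.11 and -0.05 in Ctrl, 2.26, 2.25 and 2.27 at 1 dpi, and 3.02, 3.18 and 3.25 at 3 dpi. The groups did not overlap and the 1 dpi arrays lay within 0.02 of each other. Lpl was 4.72-fold above Ctrl at 1 dpi (log2 fold change 2.24, SE 0.106, adjusted p = 4.05e-06), the largest change among the 10 genes at that time, and 8.73-fold above it at 3 dpi (adjusted p = 7.27e-07). From 1 to 3 dpi it gained 0.89 (adjusted p = 0.000496), under 2-fold. With array medians that step was 1.08 and called.

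Lpl had 6 probes, and they disagreed in size. Against Ctrl, 5 of them gave 0.76 to 2.83 at 1 dpi and 1.46 to 3.44 at 3 dpi. The remaining probe, against an Ensembl transcript, at chr8:71413311-71413370 on the plus strand of mm9, read -1.34, -0.87 and -0.71 in Ctrl, -1.26, -1.23 and -1.20 at 1 dpi, and -0.93, -0.75 and -0.82 at 3 dpi. Its Ctrl arrays covered the range of both other groups, and its changes of -0.25 and 0.14 were not called. The main probe lies at chr8:71430267-71430326 of mm9, also on the plus strand.

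Fabp4 encodes the adipocyte fatty acid-binding protein, which carries fatty acids through the cytoplasm. It stood at 1.15, 0.97 and 1.07 in Ctrl, at 2.84, 2.79 and 2.75 at 1 dpi, and at 4.28, 4.13 and 4.29 at 3 dpi. Its groups were separated by gaps many times wider than the spread inside each group. Fabp4 was 3.32-fold above Ctrl at 1 dpi (log2 fold change 1.73, SE 0.0740, adjusted p = 2.54e-06). At 3 dpi its log2 fold change was 3.17, adjusted p = 2.19e-07. The step from 1 to 3 dpi, 1.44, was also called, adjusted p = 1.53e-05. The other Fabp4 probe gave 1.36 at 1 dpi and 3.13 at 3 dpi.

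Apoe encodes apolipoprotein E, a lipid carrier that macrophages and stromal cells also secrete. Its level was 4.31, 4.0 and 4.02 in Ctrl, 5.14, 5.02 and 5.03 at 1 dpi, and 5.90, 5.71 and 5.69 at 3 dpi. Ctrl replicate 1 was the highest Ctrl array, and no groups overlapped. The log2 fold change at 1 dpi was 0.95 (SE 0.103, adjusted p = 0.000213), just under 2-fold. Without Ctrl replicate 1 it was 1.05 and called, whereas the other scalings gave 0.64 to 0.68, not called. At 3 dpi Apoe was 3.16-fold above Ctrl (log2 fold change 1.66, adjusted p = 1.49e-05). A further Apoe probe gave 0.84 and 1.63, close to these values.

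Plin1 encodes perilipin 1, the droplet coat of adipocytes that gates lipolysis. On the main probe it read -6.04, -4.46 and -4.30 in Ctrl, -3.71, -4.03 and -3.93 at 1 dpi, and -4.54, -4.75 and -4.51 at 3 dpi. Ctrl replicate 1 was far below the other Ctrl arrays, and the 3 dpi arrays fell inside the Ctrl range. The log2 fold change was 1.04 at 1 dpi, with an SE of 0.416 and an adjusted p of 0.0639, and 0.34 at 3 dpi, adjusted p = 0.564. Neither was called, nor was the difference of -0.71 between 3 and 1 dpi, adjusted p = 0.205. Without Ctrl replicate 1 the 3 dpi value turned to -0.22 and the 1 dpi value dropped to 0.49. Without Ctrl replicate 2 or 3 the 1 dpi value was 1.28 or 1.36 and called. On this probe, quantile normalization, array medians and normexp correction gave 0.59, 0.73 and 0.27 at 1 dpi. At 3 dpi they gave 0.085, 0.21 and 0.02, and no value at either time was called.

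The Plin1 probe against its RefSeq transcript gave another picture. It read -6.24, -6.25 and -6.21 in Ctrl, -4.71, -4.81 and -4.69 at 1 dpi, and -4.73, -4.70 and -4.31 at 3 dpi, and was well above background on 2 of the 3 Ctrl arrays and on all irradiated arrays. Irradiated and Ctrl arrays were apart on this probe, while 1 and 3 dpi overlapped. Its log2 fold change was 1.5 at 1 dpi and 1.65 at 3 dpi, with adjusted p values over all probes of 3.75e-05 and 2.50e-05. The remaining Plin1 probe was well above background on 1 array in Ctrl, 1 at 1 dpi and 3 at 3 dpi, and gave 0.68 and 0.45, not called.

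Plin4 encodes perilipin 4, which coats small, nascent droplets. It stood at -3.93, -3.73 and -3.90 in Ctrl, at -3.11, -3.19 and -3.29 at 1 dpi, and at -3.11, -3.30 and -3.19 at 3 dpi. Irradiated arrays lay above Ctrl without overlap, and the irradiated groups covered the same range. The log2 fold change was 0.66 at 1 dpi, with an SE of 0.0855 and an adjusted p of 0.000516. At 3 dpi it was 0.65, adjusted p = 0.000825, and both were under 2-fold. At 1 dpi the other scalings gave 0.21 to 0.34. The difference between 3 and 1 dpi was -0.01, with an interval of -0.21 to 0.19, and its sign turned under the other scalings, for example to 0.19 with quantile normalization.

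Cidec encodes the fat-specific protein that fuses droplets into large ones. Its level was -5.39, -4.92 and -4.93 in Ctrl, -4.78, -3.82 and -4.24 at 1 dpi, and -3.01, -3.56 and -3.36 at 3 dpi. With this scaling the groups did not overlap, though 1 dpi replicate 1 came close to Ctrl. In the authors' table that array read 5.03, below the Ctrl arrays at 5.32, 5.25 and 5.25, so 1 dpi and Ctrl overlapped there. At 3 dpi Cidec was 3.41-fold above Ctrl (log2 fold change 1.77, SE 0.263, adjusted p = 0.00155), a call that was lost with normexp correction (0.80). At 1 dpi the change of 0.80 (adjusted p = 0.0332) was under 2-fold. Without 1 dpi replicate 1 it was 1.05 and called, whereas the other scalings gave 0.19 to 0.49, with adjusted p from 0.121 to 0.321. The step from 1 to 3 dpi was 0.97 (adjusted p = 0.0193), not called. It was called with quantile normalization (1.22), with array medians (1.16) and in the authors' table (1.22). Leaving out 1 dpi replicate 2 (1.2) or 3 dpi replicate 2 (1.09) also gave a call.

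**Figure D2:**
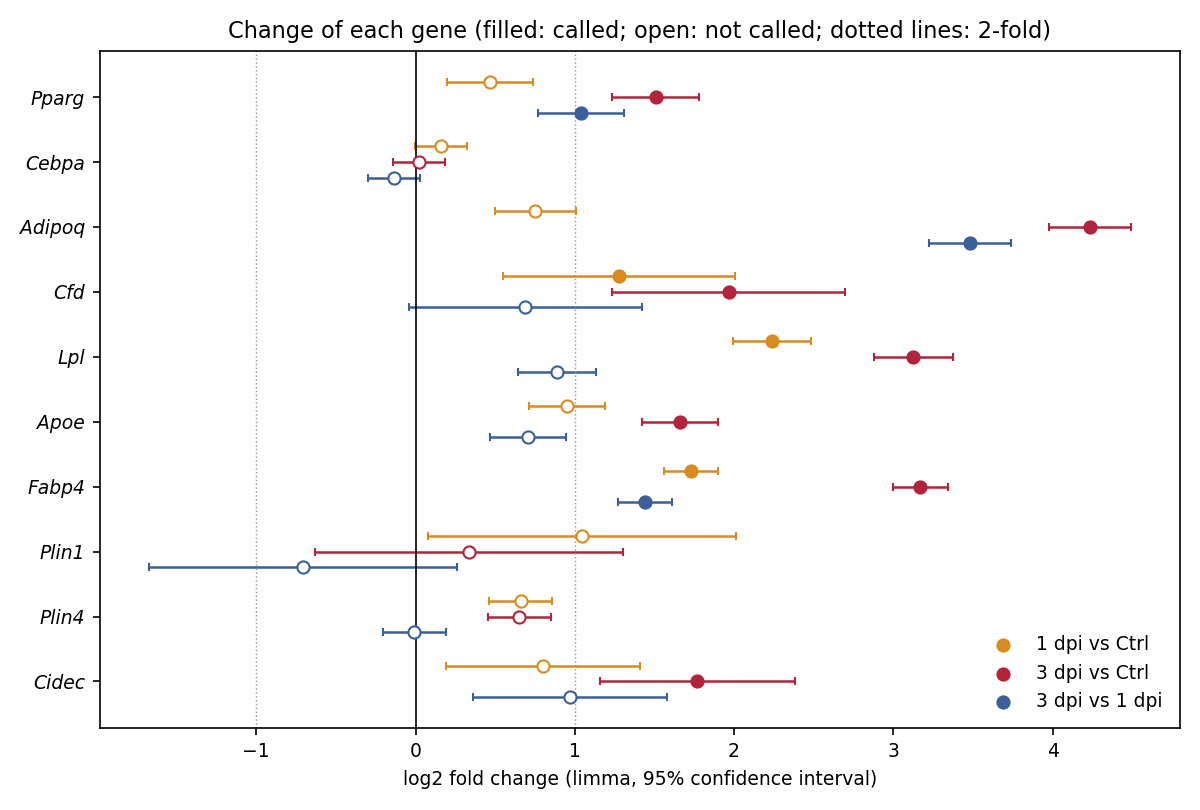
Log2 fold change of each of the 10 genes in the 3 comparisons (x axis, with 95% confidence intervals from limma), filled where called and open where not, with dotted lines at 2-fold. Adipoq at 3 dpi lies farthest right at 4.23, and Cebpa lies near 0 throughout, with a sign that turned when array medians were used.

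Against Ctrl, 9 of the 10 genes kept a value above 0 at both times under the 5 scalings of the intensities, all but Cebpa. This includes the authors' table except for Pparg, whose entry there was not well above background in Ctrl and at 1 dpi. With the main scaling all 10 were above 0 at both times, as were 18738 of all 29410 genes at 1 dpi and 17997 at 3 dpi. Within the second slide, Plin1 at 3 dpi was below 0 (-0.22). Ordered by the change at 3 dpi, Adipoq led, Fabp4 and Lpl followed within 0.05 of each other, and Cfd, Cidec, Apoe and Pparg came next at 1.97, 1.77, 1.66 and 1.51, with intervals that overlapped. Plin4, Plin1 and Cebpa had the smallest values on their main probes, but the RefSeq-transcript probe of Plin1 gave 1.65. At 1 dpi Lpl and Fabp4 led, and the places below these depended on the scaling.

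Over all 21 probes, 10 were called higher at 1 dpi, against 11.6% of all probes tested, 16 at 3 dpi, against 6.58%, and 5 from 1 to 3 dpi, against 3.75%. The count at 1 dpi includes the dim Pparg probe, which was not well above background in either group of that comparison. That probe was tested only because of its signal at 3 dpi, so its call there is not independent of the filter.

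**Figure D3:**
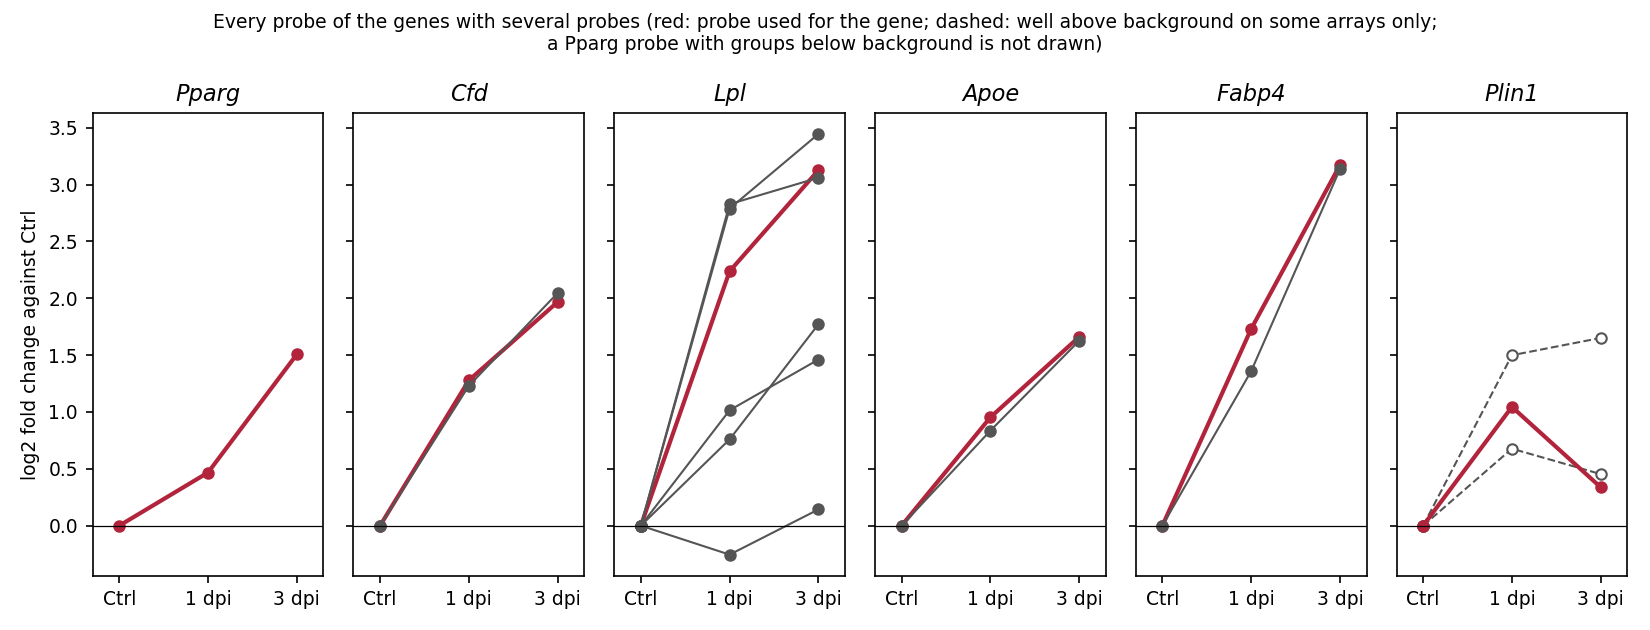
Log2 fold change against Ctrl (y axis) of every drawn probe of the genes with several probes, at 1 and 3 dpi (x axis), with the main probe in red and dashed lines for probes well above background on some arrays only. The probes of Cfd, Apoe and Fabp4 ran together, those of Lpl spread from 0.14 to 3.44 at 3 dpi, and those of Plin1 disagreed; the dim Pparg probe is not drawn.

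The authors' table has 1 row per gene. Its entries for Adipoq, Fabp4, Plin4, Cebpa, Apoe and Cidec matched the main probe after quantile normalization, with a largest difference of 0.0022 on any array. Those for Lpl, Pparg, Plin1 and Cfd matched another probe of the gene, within 0.0063. From the authors' values, 3 of the 10 genes were called at 1 dpi, 8 at 3 dpi and 3 from 1 to 3 dpi, against 3587, 2414 and 2651 of 21308 genes, with Pparg in place of Cfd at 1 dpi, Plin1 added at 3 dpi (1.36) and Cidec in place of Pparg from 1 to 3 dpi. The Pparg entry is the dim probe, which was well above background on 0 arrays in Ctrl and at 1 dpi, so its call at 1 dpi compares groups at background.

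Promoter windows were read from the RefSeq set for GRCm38.p6, as the 250 bases before each annotated start. Entries were found for 8 of the 10 genes, with 13 windows in all, and not for Lpl and Fabp4. The motifs searched, on both strands, were AGGTCA (a nuclear receptor half-site), TTNNGCAA (C/EBP), CCAAT and TATAAA. Matches could share bases, as the TATAAA matches of Apoe did. Printed here are the window of Adipoq, the most changed gene, at chr16:23146286-23146535 (plus strand), windows of Pparg at chr6:115362099-115362348 and chr6:115421816-115422065 (plus strand), and that of Cebpa, which was not called, at chr7:35119043-35119292 (plus strand). Capitals mark motif matches, written as they read on the strand of the gene.
Adipoq: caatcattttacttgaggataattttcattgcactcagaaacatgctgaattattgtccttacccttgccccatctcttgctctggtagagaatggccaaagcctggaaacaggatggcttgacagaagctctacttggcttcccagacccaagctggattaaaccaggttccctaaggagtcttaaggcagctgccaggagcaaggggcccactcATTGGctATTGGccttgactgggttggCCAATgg
Pparg, middle start: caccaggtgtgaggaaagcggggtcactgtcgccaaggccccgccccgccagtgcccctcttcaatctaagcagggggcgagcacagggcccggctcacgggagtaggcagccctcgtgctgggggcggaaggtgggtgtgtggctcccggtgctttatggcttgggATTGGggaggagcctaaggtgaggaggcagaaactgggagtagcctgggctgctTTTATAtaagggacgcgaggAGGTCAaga
Pparg, last start: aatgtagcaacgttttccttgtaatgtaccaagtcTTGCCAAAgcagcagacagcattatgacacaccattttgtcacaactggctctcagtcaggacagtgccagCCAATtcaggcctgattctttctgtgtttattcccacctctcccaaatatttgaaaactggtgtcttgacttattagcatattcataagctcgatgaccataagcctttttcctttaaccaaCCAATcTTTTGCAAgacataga
Cebpa: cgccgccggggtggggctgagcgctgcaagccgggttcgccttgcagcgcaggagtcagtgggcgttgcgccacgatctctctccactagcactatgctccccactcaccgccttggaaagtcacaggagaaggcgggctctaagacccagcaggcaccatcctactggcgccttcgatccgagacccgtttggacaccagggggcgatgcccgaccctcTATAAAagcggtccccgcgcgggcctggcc

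Adipoq had 3 CCAAT matches, at 7, 27 and 34 bases before its start, and none of the other motifs. CCAAT occurred in 4 of the 13 windows, those of Adipoq, Plin4 and 2 of Pparg, against 33.9% of 32851 windows. TTNNGCAA occurred in 3 of the 13, 1 each of Pparg, Plin1 and Cidec, against 9.56%. The last of these windows of Pparg held it at 16 and 215 bases before the start. AGGTCA occurred in 2, both of Pparg, against 14.0%, and TATAAA in 3, of Pparg, Cebpa and Apoe, against 12.4%. Called and uncalled genes both had matches, and a match is a description of these letters only.

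A list of 29 partner genes, which act on, beside or downstream of the 10, was followed whatever its values. Of these, 11 were called higher at 1 dpi and 12 at 3 dpi, against 12.3% and 6.98% of all genes, and 0 lower. Their median log2 fold change relative to all genes was 0.33 and 0.35. Under the other scalings the counts of higher calls were 8 or 9 at 1 dpi and 10 or 11 at 3 dpi, with 1 lower at 3 dpi in the authors' table. Those called at both times were Apoc2, Cd36, Cdh13, Cfb, Fabp5, Gpihbp1, Lrp1, Nr1h3, Plin2 and Plin5. Abca1 and Angptl4 were called at 3 dpi, and Cidea at 1 dpi.

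Around Lpl, Gpihbp1, which holds the enzyme on the capillary wall, read -1.73, -1.74 and -1.73 in Ctrl, 0.28, -0.11 and 0.09 at 1 dpi, and 0.29, 0.23 and 0.21 at 3 dpi. Irradiated arrays of either day stood above Ctrl and overlapped each other. It rose by 1.82 and 1.98 on the log2 scale (adjusted p = 6.41e-06 and 4.04e-06). Apoc2, the cofactor that activates Lpl, rose by 1.88 and 1.28, and Angptl4, which inhibits Lpl, had 0.59 at 1 dpi and rose by 1.1 at 3 dpi. Lmf1, the chaperone that matures Lpl, had -0.10 and -0.25, not called.

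For uptake, Cd36, the scavenger receptor that takes up fatty acids, read -2.65, -3.20 and -3.10 in Ctrl, -0.43, -0.58 and -0.44 at 1 dpi, and -0.25, -0.24 and -0.12 at 3 dpi. Ctrl lay far below both irradiated groups. It rose by 2.5 and 2.78 (adjusted p = 8.78e-06 and 4.97e-06), and Fabp5, the paralogue of Fabp4, by 1.34 and 1.13. The Apoe receptor Lrp1 rose by 1.38 and 2.20, with probes from 1.22 to 1.65 and from 1.03 to 2.20. Abca1, which loads lipid onto apolipoproteins, had 0.41 at 1 dpi and rose by 2.08 at 3 dpi. It was the 1 partner gene called from 1 to 3 dpi (1.67, adjusted p = 7.92e-06), but the other Abca1 probe gave 2.19 at 1 dpi and -0.14 from 1 to 3 dpi.

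Among droplet genes, Plin2, the ubiquitous droplet coat, read 2.60, 2.32 and 2.27 in Ctrl, 4.29, 4.18 and 4.29 at 1 dpi, and 3.86, 3.90 and 3.87 at 3 dpi, rising by 1.86 and 1.48, with 0.94 at 3 dpi on its other probe. Plin5, a coat of oxidative tissues, rose by 1.01 and 1.06, with 0.69 and 0.82 on its other probe, and Plin3 had 0.09 and 0.39. Cidea was called at 1 dpi (1.47, adjusted p = 0.0256) but was well above background on 1 Ctrl array and 2 arrays at 1 dpi. The lipases were not called: Pnpla2 had 0.53 and 0.01, Lipe -0.32 and -0.53, and Mgll -0.09 and -0.20. The other Lipe probe gave 0.12 and 0.002, and the other Mgll probe 0.40 and -0.18. Their regulators Abhd5 and G0s2 had -0.09 and 0.47, and 0.47 and 0.10. Cideb had 0.58 and 0.18.

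Among regulators, Nr1h3, which encodes the oxysterol receptor LXR alpha, read -0.68, -0.76 and -0.67 in Ctrl, 0.52, 0.32 and 0.31 at 1 dpi, and 1.2, 1.06 and 1.14 at 3 dpi. The groups were apart, and it rose by 1.09 and 1.84. Rxra, the dimer partner of Pparg, had -0.16 and 0.13. Cebpb and Cebpd, which act upstream of Pparg in fat, had 0.70 and 0.52, and -0.07 and 0.23. Rxra, Cebpb and Cebpd were not called.

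For the secreted factors, Cfb, the complement protein that Cfd cleaves, read -2.83, -3.04 and -3.02 in Ctrl, 1.02, 0.98 and 1.05 at 1 dpi, and 1.31, 1.06 and 1.15 at 3 dpi. It rose by 3.98 and 4.13 (15.8-fold and 17.6-fold, adjusted p = 2.10e-07 and 1.75e-07), more than any other partner gene. C3, the protein to which Cfb binds, had 0.08 and 0.01. The adiponectin receptors Adipor1 and Adipor2 had 0.47 and 0.21, and -0.28 and -0.22, not called, whereas Cdh13, the cadherin that binds adiponectin, rose by 2.11 and 1.43, with 0.82 and 0.57 on its other probe. Lep, which encodes leptin, had 0.74 and 0.32.

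**Figure D4:**
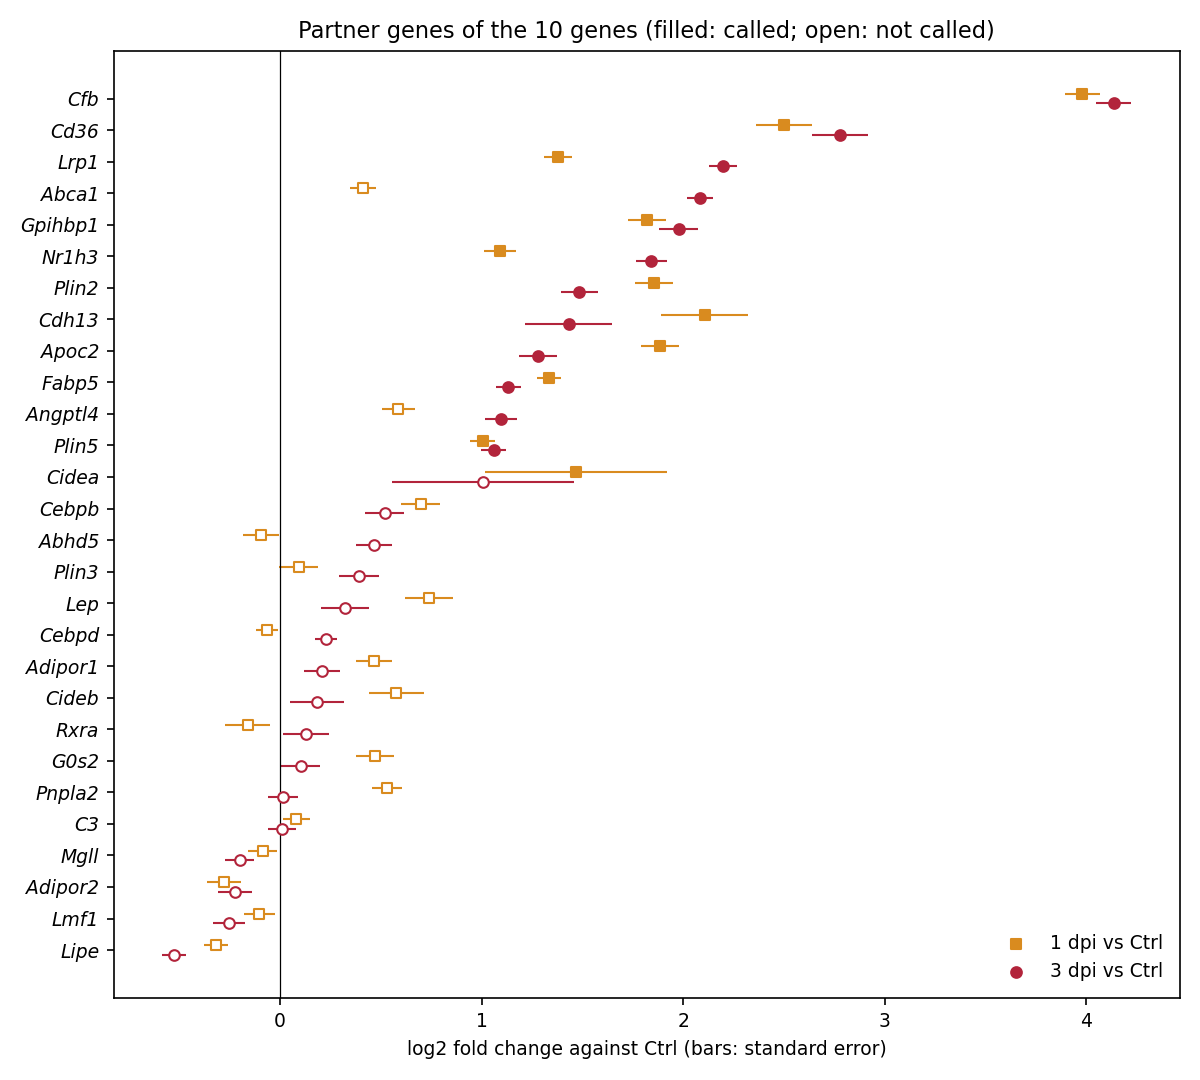
Log2 fold change against Ctrl (x axis, bars are SE) of 28 of the 29 partner genes at 1 dpi (squares) and 3 dpi (circles), filled where called. Cfb lies farthest right at both times, and Lipe lies left of 0 on its main probe. Cidea was not well above background on all arrays.

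Further lists set the 10 genes beside other genes of fat cells. At 1 dpi, 3 of 22 adipogenic regulators tested were higher and 2 were lower. At 3 dpi these counts were 4 and 1, and the medians relative to all genes were -0.36 and 0. Of the 4 higher at 3 dpi, Zfp423, Ebf2 and Ppara were well above background on 0 Ctrl arrays, and Ebf2 and Ppara were tested only because of their signal at 3 dpi. Klf15, among the 2 lower at 1 dpi, was well above background on 0 arrays there. The 3 dpi median of this list, 0.11 before that step, turned to -0.01 with array medians. Nr1h3 rose at both times, and Ebf1, used in fat and B cells alike, fell by 2.84 and 1.62. The Notch-like inhibitor Dlk1 was called at 1 dpi (1.29) from Ctrl arrays that read -4.21, -2.43 and -2.29, and its other probe gave 0.34. Without Ctrl replicate 1, 2 genes of this list were higher at 1 dpi. With array medians 1 was higher and 2 were lower at 1 dpi, with normexp correction 1 and 1, and from the authors' values 3 and 4. At 3 dpi 1 was higher and 1 was lower with normexp correction. Ebf1 read -0.46, -0.69 and -0.68 in Ctrl, -3.45, -3.50 and -3.41 at 1 dpi, and -2.21, -2.31 and -2.16 at 3 dpi. Ppargc1a was not tested, being too dim.

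Of 20 droplet and lipolysis genes, 4 were called higher at 1 dpi and 3 at 3 dpi, and 0 lower, with relative medians of 0.10 and 0.03. At 1 dpi 1 was higher and 2 were lower with array medians, 2 and 1 with quantile normalization and from the authors' values, and 2 and 0 with normexp correction. Without Ctrl replicate 1, 1 was lower. Plin2, Plin5 and Hilpda were the clearest, and the 4 at 1 dpi include Cidea, which was tested only because of its signal at 3 dpi. Hilpda, an inhibitor of lipolysis, rose by 1.26 and 1.52. At 1 dpi, 3 of 18 genes for fatty acid and triglyceride synthesis were higher and 1 was lower, and at 3 dpi these counts were 3 and 0, with relative medians of -0.20 and -0.09, and with a sign of the unadjusted median that turned under 3 of the other scalings. The counts at 1 dpi were 3 higher and 3 lower with array medians, 1 and 1 with normexp correction, and 6 and 1 from the authors' values. Me1, the malic enzyme, rose by 2.19 and 3.26, and Elovl6, a fatty acid elongase, by 2.48 at 1 dpi. Scd1, a desaturase, fell by 1.81 at 1 dpi, with -0.01 on its other probe, and Thrsp and Gpd1 rose by 2.63 and 1.06 at 3 dpi, with 1.34 and 0.78 on their other probes.

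At 1 dpi, 7 of 27 genes for lipoprotein and fatty acid uptake were higher and 1 was lower, and at 3 dpi these counts were 11 and 0, with relative medians of 0.21 and 0.26. Fabp3, the heart fatty acid-binding protein, rose by 3.98 at 1 dpi, and Lipg and Pltp, a lipase and a phospholipid carrier, rose by 2.40 and 2.27 at 3 dpi. Of 16 adipokine and receptor genes tested, 7 were higher at 1 dpi and 6 at 3 dpi, and 0 lower, with relative medians of 0.48 and 0.26. With normexp correction 4 were higher at each time. Rarres2, which encodes chemerin, rose by 2.10 and 3.73, and Agt and Retnla by 3.75 and 1.79 at 3 dpi. Itln1 and Serpina12 were too dim to test.

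A list of 12 other adipocyte markers bears on what the label of the 10 genes covers. Of these, 10 were tested, 2 were called higher at 1 dpi and 4 at 3 dpi, and 0 lower, with relative medians of 0.40 and 0.93. Car3, a carbonic anhydrase abundant in fat, read -1.72, -2.0 and -1.92 in Ctrl, -1.72, -1.68 and -1.63 at 1 dpi, and 0.15, 0.07 and 0.23 at 3 dpi. On this probe it was high at 3 dpi alone and rose there by 2.03, but its probes ranged from 0.05 to 0.76 at 1 dpi, from 0.93 to 2.03 at 3 dpi and from 0.17 to 1.83 between 3 and 1 dpi. Sncg rose by 1.89 and 1.61, and Acvr1c by 1.43 at 3 dpi. Cox8b and Tnmd were too dim to test, Ucp1 was well above background on 0 arrays in Ctrl and at 1 dpi, and Trarg1 on 1 Ctrl array and 0 arrays at 1 dpi. Adipocyte genes were thus partly measured and partly not well above background, and Ucp1, Trarg1 and Cidea were tested only because of their signal at 3 dpi. Cidea is 1 of the 2 genes counted as higher at 1 dpi, and Trarg1 (2.21) is 1 of the 4 at 3 dpi. The 3 dpi median of this list lies between Cidea (1.01) and Ucp1 (1.08). The relative median of 0.93 thus rests on genes tested only because of their signal at 3 dpi. With normexp correction 0 were called at 1 dpi and 1 at 3 dpi, with medians of 0.06 and 0.20. With quantile normalization the 1 dpi median was 0.13, and from the authors' values 1 gene was lower at 3 dpi.

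Markers of megakaryocytes, the labelled cells, were well above background on all arrays for 13 of 13 genes, and 0 were called at either time. With array medians 1 was lower at 1 dpi, and from the authors' values 1 was lower at 3 dpi. Pf4, the brightest, stayed between 6.02 and 6.23 on the 9 arrays. Their mean level was 1.69, 1.54 and 1.5 in Ctrl, 1.57, 1.52 and 1.44 at 1 dpi, and 1.70, 1.68 and 1.69 at 3 dpi. Their median relative to all genes was -0.34 and -0.11.

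Some stromal, osteoblast, endothelial and macrophage markers were higher along with the 10 genes, while most B cell and erythroid markers were lower. The part of these cells in the results was not tested. At 1 dpi, 7 of 13 stromal markers were higher and 1 was lower, and at 3 dpi these counts were 6 and 1, with relative medians of 1.14 and 0.64. With normexp correction 4 were higher at 1 dpi and 7 at 3 dpi, with medians of 0.58 and 1.03, and from the authors' values 9 were higher at 3 dpi, with a median of 3.53. The median was higher at 1 than at 3 dpi with quantile normalization and array medians too, but not in these 2 alternatives, which also change the background correction or the probes. The mean level of the stromal markers was -2.08, -1.84 and -1.81 in Ctrl, -0.73, -0.85 and -0.72 at 1 dpi, and -0.12, -0.22 and -0.16 at 3 dpi, so that every group was apart. Cxcl12 read 1.94, 1.59 and 1.59 in Ctrl, 4.51, 4.32 and 4.44 at 1 dpi, and 5.22, 5.15 and 5.26 at 3 dpi. Cxcl14 rose by 2.59 at 1 dpi, with 0.43 on its other probe, Foxc1 by 2.43 and 4.02, Ebf3 by 4.10 at 3 dpi and Grem1 by 3.66 at 3 dpi. The brightest, Vcam1, had -0.14 and 0.75 and was not called. All 13 were well above background except Il7 on 1 Ctrl array.

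Of 8 osteoblast markers, 5 were called higher at 1 dpi and 6 at 3 dpi, with relative medians of 1.39 and 2.82. With normexp correction the medians were 0.92 and 1.79. Their mean level was -2.80, -2.30 and -2.46 in Ctrl, -0.86, -1.0 and -0.88 at 1 dpi, and -0.07, -0.20 and -0.10 at 3 dpi. Col1a1, the brightest, rose by 2.22 and 3.15, with other probes as low as 0.85 and 0.47. The osteocalcin genes Bglap2 and Bglap rose by 2.79 and 3.97 and by 2.54 and 3.75, with 0.96 and 1.11 on the other Bglap probe. Dmp1, counted among the higher at both times, was well above background on 1 Ctrl array and 0 arrays at 1 dpi and was tested only because of its signal at 3 dpi. Of 12 endothelial markers, 6 were higher at 1 dpi (3 to 5 under the other scalings) and 8 at 3 dpi, with relative medians of 0.64 and 1.64. At 1 dpi 1 was lower with quantile normalization, with array medians and from the authors' values. The mean level of this list was -1.68, -1.79 and -1.76 in Ctrl, -0.87, -1.05 and -0.90 at 1 dpi, and -0.24, -0.49 and -0.42 at 3 dpi. Cdh5 rose by 1.74 and 2.4, Plvap by 1.49 and 2.07, and Sox18 by 1.41 and 2.29, while Egfl7, the brightest, had 0.53 and 0.19. Flt4, counted among the higher at both times, was well above background on 2 arrays in Ctrl and 2 at 1 dpi. It was tested only because of its signal at 3 dpi.

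At 1 dpi, 5 of 17 macrophage markers were higher and 2 were lower, and at 3 dpi these counts were 13 and 0, with relative medians of 0.14 and 1.68. Their mean level was 0.24, 0.14 and 0.12 in Ctrl, 0.50, 0.38 and 0.45 at 1 dpi, and 1.90, 1.89 and 1.93 at 3 dpi. The 3 dpi arrays were thus the highest, as they were for the stromal, osteoblast and endothelial means. The same held for Adipoq, Pparg, Lpl, Fabp4, Apoe and Cidec. Csf1r, the brightest, had 0.40 at 1 dpi and rose by 1.05 at 3 dpi, with 0.63 on its other probe, Marco rose by 2.95 and 3.87, and Siglec1 and C1qb rose by 2.84 and 2.51 at 3 dpi, with Siglec1 probes from 1.49 to 2.84. Timd4 and Cd163 fell by 2.52 and 2.07 at 1 dpi, with -1.29 on the other Cd163 probe. Vsig4 was well above background on 2 Ctrl arrays and on 0 at 1 dpi. It was tested only because of its signal at 3 dpi, where it is 1 of the 13 counted as higher. Without Ctrl replicate 1, the counts of stromal, endothelial and macrophage markers were unchanged and 4 osteoblast markers were higher at 1 dpi.

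Of 12 neutrophil markers, 2 were called higher at 1 dpi, S100a8 (1.14) and S100a9 (1.02), and 0 at 3 dpi with limma. Under each of the other scalings 0 were called at 1 dpi, and without Ctrl replicate 1 it was 1. The 1 dpi median of 0.64 turned to -0.01 with quantile normalization and -0.08 in the authors' table. Their brightest gene was Mpo, and their mean level was 6.52, 6.61 and 6.59 in Ctrl, 7.23, 7.15 and 7.16 at 1 dpi, and 6.65, 6.55 and 6.61 at 3 dpi. Of 8 B cell markers, 7 were called lower at each time, with relative medians of -4.07 and -3.42, and their mean level went from 0.58, 0.50 and 0.52 in Ctrl to -2.46, -2.48 and -2.50 at 1 dpi and -2.21, -2.23 and -2.25 at 3 dpi. Cd79b was the brightest, Vpreb3 fell by 5.42 and 3.96, Ms4a1 by 4.13 and 3.77, and Igll1 by 4.7 at 1 dpi. The other Ms4a1 probe gave 1.46 and -0.002. At 1 dpi, 1 of 8 erythroid markers was higher and 5 were lower, and at 3 dpi these counts were 0 and 7, with mean levels of 1.27, 1.14 and 1.16 in Ctrl, -0.73, -0.88 and -0.97 at 1 dpi, and -0.59, -0.52 and -0.63 at 3 dpi. Hba-a1, their brightest, had 1.34 at 1 dpi and -1.48 at 3 dpi, Ahsp fell by 7.62 and 2.63, Slc4a1 by 3.78 and 2.21, Klf1 by 2.09 at 1 dpi and Alas2 by 2.26 at 3 dpi.

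**Figure D5:**
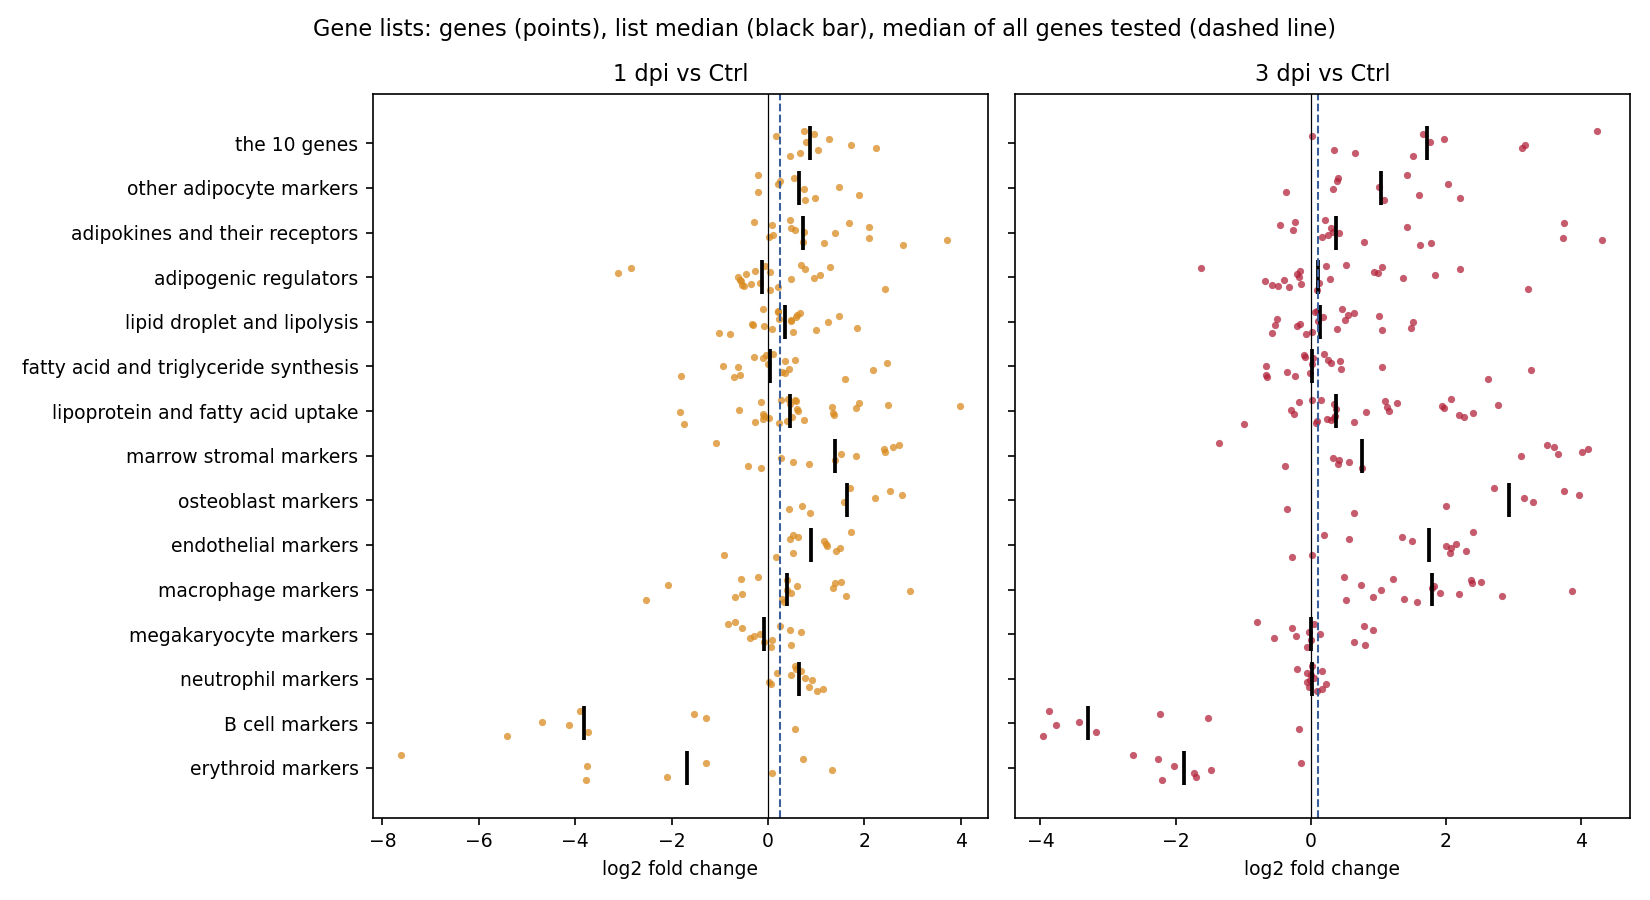
Log2 fold change against Ctrl (x axis) of every tested gene of each list at 1 dpi (left) and 3 dpi (right); black bars are list medians and dashed lines the median of all genes tested, and genes in groups not well above background are drawn at their fitted value. The medians of the 10 genes, stromal, osteoblast and endothelial markers lie right of the dashed line at both times and B cell and erythroid medians far left; the medians of adipogenic regulators, fatty acid synthesis, neutrophil and megakaryocyte markers changed sign under some scalings.

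Across the 9 arrays, the 5 genes most like Adipoq, of 28022 compared, were Gstt1, Klra23, Abca1, Aplp2 and Cysltr1, with Pearson r from 0.997 to 0.998 and Spearman rho from 0.867 to 0.967. The arrays fall into 3 groups, so r mainly reflects the group means, and 344 genes had r over 0.95. Gstt1, a glutathione transferase, read -1.63, -1.98 and -1.82 in Ctrl, -0.95, -1.31 and -1.24 at 1 dpi, and 1.36, 1.27 and 1.32 at 3 dpi. Like Adipoq, it was highest at 3 dpi by a wide margin. Among the 10 genes, r with Adipoq was 0.977 for Pparg, 0.917 for Fabp4, 0.896 for Apoe, 0.875 for Cidec, 0.821 for Lpl, 0.786 for Cfd and 0.616 for Plin4, and -0.02 for Plin1 and -0.18 for Cebpa. These are descriptions over arrays that share the same groups.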

How the data were processed

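Agilent single-colour arrays were analysed from the authors' scanner files, whose unit is processed intensity (Agilent Feature Extraction 10.7.1.1, per the submitters' processing notes). The methods describe an Affymetrix chip instead. The authors also deposited a log2 table of 27275 gene names, with array medians of 5.79 to 5.87. How it was made is not stated, and its scale was found by matching it to the probes. Of 62976 spots, 3671 were controls. Spots of the same probe were averaged, giving 56605 probes, of which 20 were removed by outlier flags, 32984 were named through RefSeq accessions and 23601 by the array file. Probes were kept when well above background on every array of some group, and the brightest stood for its gene. Log2 intensity minus the array's 75th percentile was fitted with limma 3.58.1 in R 4.3.3, with Benjamini-Hochberg adjustment over all genes or all probes. The code was tested on simulated data. An exact permutation test of 3 against 3 arrays cannot go below p = 0.10, so none was used.

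Genes named were the 10 genes, the 29 partner genes, of each further list up to 3 called genes with the largest change at each time, and the 5 most like Adipoq. Marker lists also name their brightest gene and genes near background. Some genes of these lists are counted but not reported by name here. The 10 genes and the lists were chosen with earlier results of these data known. Alternatives covered scaling, background correction, the authors' table, filters, probe choice, the fold limit, blocks, the methods' t-test and left-out arrays. The RefSeq-transcript probe as an alternative was chosen after seeing the data.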

Additional observations from a re-analysis of the deposited data

Results flagged for a closer look

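Changes from 1 to 3 dpi were marked for a closer look where the test of the difference between the days itself passed, in a comparison that uses no Ctrl array although the changes from Ctrl at either day share the Ctrl arrays. Adipoq differed by 3.48 on the log2 scale, Fabp4 by 1.44 and Pparg by 1.04, each higher at 3 dpi. Groups of 3 arrays were not tested for single deviating arrays.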

How the results depend on the processing

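Of the 10 genes, 3 were called at 1 dpi, 7 at 3 dpi and 3 from 1 to 3 dpi. At 1 dpi the count was 5 with the mean of all probes, 8 with no minimum fold, 7 with the methods' t-test unadjusted and 5 with it adjusted, and it was 2 with array medians and with normexp. At 3 dpi it was 6 to 8 throughout. From 1 to 3 dpi it was 5 with array medians, 6 with no minimum fold, 7 with the methods' t-test unadjusted and 6 with it adjusted, and it was 2 with normexp and with the mean of all probes. Dropping the fold limit raises counts by construction, and the cause of the other differences was not tested.

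Over all genes, 4468 were called at 1 dpi, 2587 at 3 dpi and 2588 from 1 to 3 dpi. With normexp correction these were 1667, 1147 and 1088. With no minimum fold they were 16443, 9416 and 13125. With the methods' t-test they were 15674, 10523 and 16909 unadjusted, and 12626, 7120 and 14319 adjusted. With no filter 4489 were called from 1 to 3 dpi.

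Pairing by replicate number was checked: same-numbered arrays had r of -0.107 to 0.128 and others -0.147 to 0.102, so the numbers do not pair. With replicate as a block, 3, 7 and 3 of the 10 genes and 4273, 2498 and 2494 of all genes were called. With slide as a block, which equals leaving out Ctrl replicate 1, these were 4, 7 and 3, and 3561, 2372 and 2812.

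Directions turned as follows, on the log2 scale. Plin4 from 1 to 3 dpi went from -0.01 to 0.19 with quantile normalization, 0.18 with array medians, 0.12 with normexp, 0.19 in the authors' table and 0.10 relative to all genes. Cebpa went from 0.16 to -0.16 with array medians and -0.0878 relative to all genes at 1 dpi, from 0.02 to -0.10 and -0.0893 at 3 dpi, and from -0.14 to 0.0548 with array medians from 1 to 3 dpi. Plin1 went from 0.34 to -0.22 at 3 dpi with slide as a block, and from -0.71 to 0.40 in the authors' table and 0.15 with the RefSeq-transcript probe from 1 to 3 dpi. Pparg from 1 to 3 dpi was 1.04, and -0.18 in the authors' table, which carries a probe well above background on 0 arrays at 1 dpi, so that value is no measured change.

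With 1 array left out at a time, 3 to 4, 7 to 7 and 3 to 4 of the 10 genes were called, and 3561 to 5367, 2347 to 2768 and 2264 to 2812 of all genes. Plin1 at 3 dpi ranged from -0.22 to 0.65, Cebpa at 3 dpi from -0.0115 to 0.0705, and Plin4 from 1 to 3 dpi from -0.0533 to 0.0443.

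Of 450 member values under other settings, 392 were the same, 7 weaker, 37 stronger and 14 reversed. Of 270 with an array left out, 260 were the same, 0 weaker, 6 stronger and 4 reversed.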

Other observations

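Each group had 3 arrays. Ctrl replicate 1 had the fewest spots well above background and a slide of its own. Without it, the sign of Plin1 at 3 dpi and the call of Apoe at 1 dpi changed. The 1 dpi arrays were dim before scaling, and the size of changes under 2-fold at 1 dpi, such as those of Pparg, Cebpa and Plin4, differed between scalings. Plin1 and the dim Pparg probe lie near background. Some markers of stromal, bone, endothelial and macrophage cells were higher after IR in the same RNA and a few were lower, and which cells carried the adipocyte genes was not tested.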
